A study of Mus musculus with 4 samples.

Results

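The genes described here are 35 genes of serine, folate, methionine, purine, pyrimidine and deoxynucleotide synthesis, measured in mouse Th17 cells, the CD4 helper T cells that make IL-17. They were taken by gene symbol, as a list drawn up with earlier results of these data known, from a table of 55450 genes. Each of the 35 had a fold change, as did 29383 genes in all. RNA sequencing compared 2 cultures given a retroviral vector (PSIN) with a guide against Adarb1 (sgAdarb1) with 2 cultures given the empty PSIN vector. Adarb1 encodes ADAR2, an enzyme that deaminates adenosine to inosine in double-stranded RNA, and the guide is called a knockdown in the series' design text. Every culture carried a Cas9 transgene, per the labels, although the design text calls the donors wild type. Mice were 8 to 12 weeks old, per the labels, and 2 donors each gave 1 culture to either arm, per the design text. Naive CD4+ T cells were stimulated with 0.25 µg/mL anti-CD3ε and 1 µg/mL anti-CD28 for 24 h, transduced, and then kept for 72 h in 20 ng/mL IL-6 with 0.3 ng/mL TGF-β.

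The authors' deposited table gives 1 mean level per gene over all libraries and 1 log2 fold change with its standard error (SE), and this is the source of all values below. Its 4 columns of single libraries have names that match no sample label, so values per culture were not used here and n is 2 cultures per arm throughout. A mean is the mean of counts divided by DESeq2 size factors, called the mean normalized count. Fold changes are read as sgAdarb1 over empty vector, the order in the design text, because the table does not name its numerator. Signs turn if the authors used the other order. Titles and treatment tags disagree for 2 of the 4 samples, sgAdarb1 replicate 1 and empty vector replicate 2. Whether the authors' grouping followed titles or tags could not be checked. If it followed the tags and the titles are right, the fold changes compare replicate 2 with replicate 1. They would then not measure the guide. Adarb1 mRNA itself was at 0.11 ± 0.12 (log2, SE; unadjusted p = 0.381; mean 2130) in the authors' deposited table. Adar, which encodes the related ADAR1, was at -0.03 ± 0.11 in the same authors' deposited table. The Adarb1 value does not test the guide, since a Cas9 cut can leave mRNA abundance as it was. The T cell genes Cd4, Cd3e and Trac had means of 15286, 5150 and 4682 normalized counts in the authors' deposited table, and the Th17 cytokine genes Il17a and Il17f had 1756 and 3739. Marker lists of other cells were lower, at 129 to 414 for B cells, 1.24 to 287 for CD8 T and NK cells, and 2.14 to 19.6 for myeloid cells in the authors' deposited table.

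Dividing T cells build nucleotides from serine-derived carbon. Serine gives a carbon unit to folate, either in mitochondria or in the cytosol, and folate carries that unit into the purine ring, into thymidylate and into the regeneration of methionine. Ribose for all nucleotides comes from phosphoribosyl pyrophosphate (PRPP), and ribonucleotide reductase turns ribonucleotides into the deoxynucleotides needed for DNA. Activated T cells are known for a high use of this pathway.

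None of the 35 genes passed the test. By the DESeq2 Wald test in the authors' deposited table, 0 of 35 had an adjusted p below 0.05, against 0.00% of the 29383 genes with a fold change. At an unadjusted p below 0.05 there were also 0 of 35, against 0.208% of all genes and 0.486% of the 7410 genes whose mean lay in the range of the 35. Those means were 216 (Dhodh) to 4892 (Rrm1) in the authors' deposited table. Estimates were small: 26 of 35 lay within 0.1 of 0 on the log2 scale, and 33 of 35 were smaller than their own SE. For comparison, 90.3% of those 7410 genes were also smaller than their SE. The Wald score, fold change over SE, had an SD of 0.61 over those 7410 genes and 0.56 over the 35. Shares of 0.208% and 0.486% are far below the rate that a threshold of 0.05 gives when no gene changes. The SEs were thus wide beside the spread of the estimates, and 0 of 35 says little by itself.

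The direction of the estimates was not even. There were 25 negative and 10 positive log2 fold changes, or 71.4% negative, beside 48.7% negative among the 7410 genes in that range of means in the authors' deposited table. The median was -0.05 for the 35 genes and 0.00 for the 7410. All 35 genes come from the same 4 libraries and are not replicates of each other, so these shares are a description without a test.

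The intervals limit what could have been missed. Each of the 35 genes had a 95% interval (normal, from the SE) inside -1 to 1 on the log2 scale, which excludes a 2-fold difference in either direction under the authors' model. In 32 of 35 the interval also lay inside -0.5 to 0.5. The exceptions were Dctpp1 (-0.18 to 0.78), Dck (-0.52 to 0.23) and Dhodh (-0.73 to 0.45), which were among the least abundant of the 35.

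**Figure D1:**
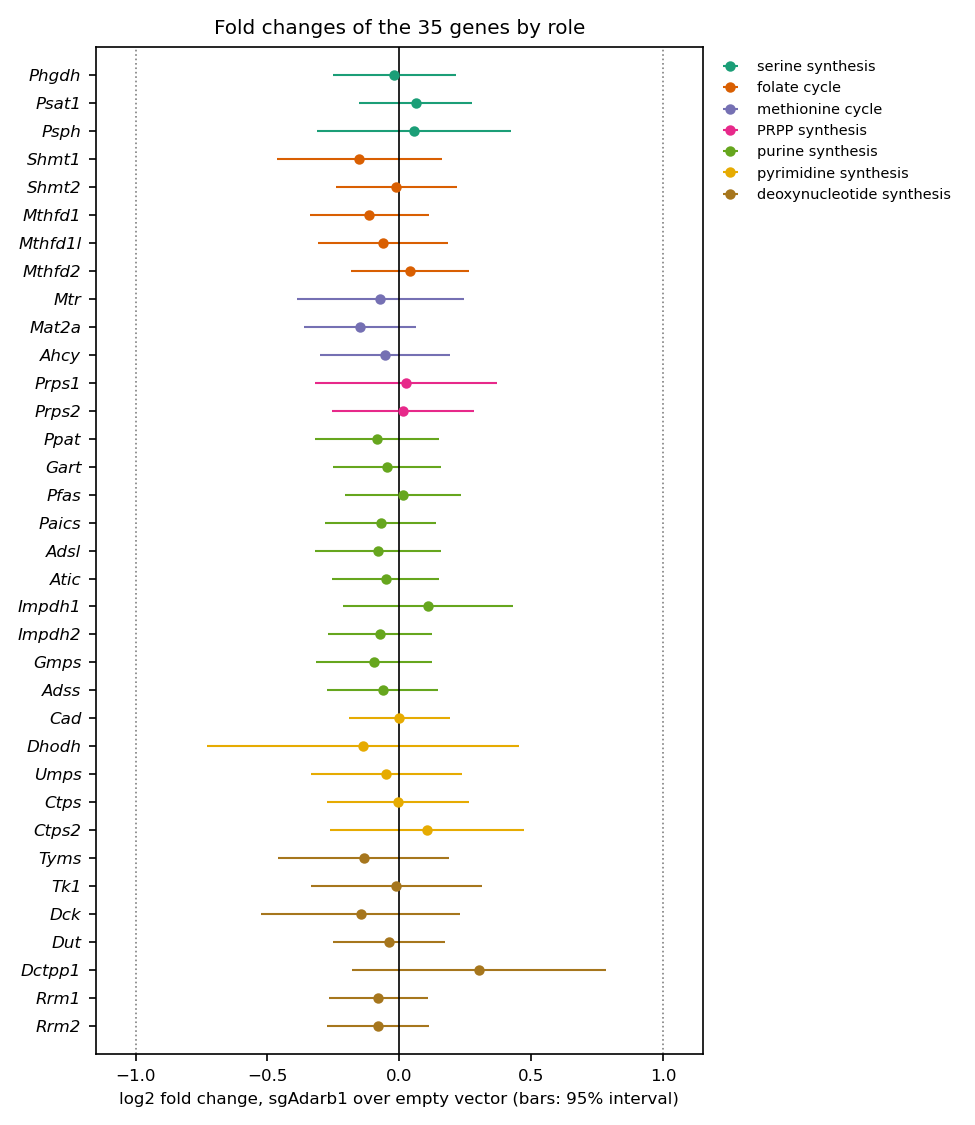
Log2 fold change of each of the 35 genes, sgAdarb1 over empty vector (x axis), with 95% intervals as bars and colours for roles; dotted lines mark -1 and 1. Every interval spans 0 and stays inside the dotted lines, and Dctpp1 is the point farthest to the right at 0.30.

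**Figure D2:**
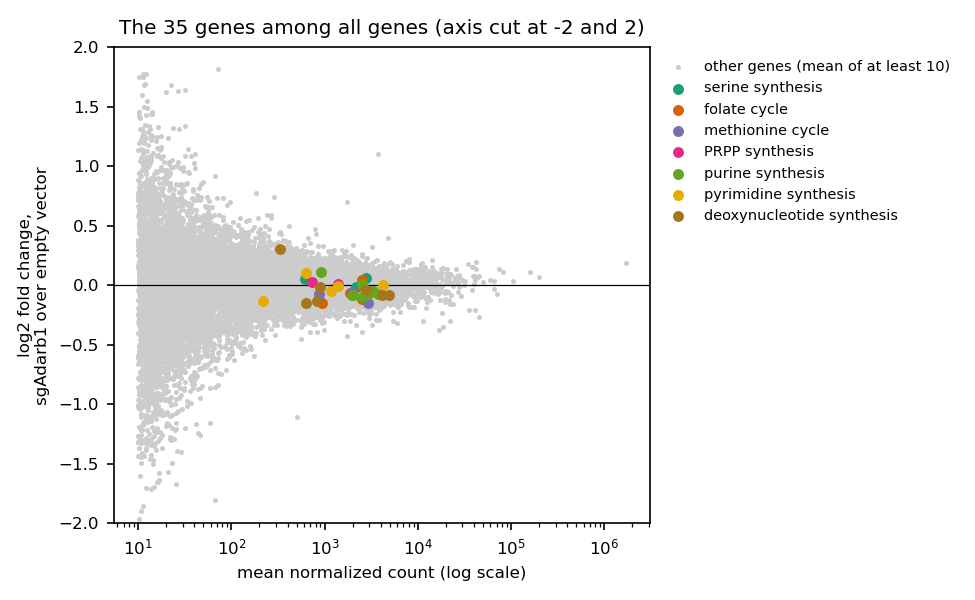
Log2 fold change (y axis) against mean normalized count (x axis, log scale) for the 14547 genes whose mean reached 10, in grey, and the 35 genes in colours. The y axis ends at -2 and 2, which leaves out 18 grey points, and the coloured points lie inside the grey cloud at their means.

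The 5 genes with the smallest p-values did not pass the test and are given with their positions on mm10. Mat2a encodes the enzyme that makes S-adenosylmethionine, the methyl donor of the cell (chromosome 6, 72432799 to 72439558, minus strand). It was at -0.15 ± 0.11 (unadjusted p = 0.168), with an interval from -0.36 to 0.06, in the authors' deposited table. Dctpp1, a pyrophosphatase that hydrolyses dCTP and its modified forms (chromosome 7, 127256959 to 127260709, minus strand), was at 0.30 ± 0.25 (unadjusted p = 0.221) in the authors' deposited table. Its estimate was the largest in size of the 35 and corresponds to 1.23-fold, with an interval from 0.882-fold to 1.72-fold. Mthfd1 (chromosome 12, 76255298 to 76319803, plus strand) was at -0.11 ± 0.12 (unadjusted p = 0.323) in the authors' deposited table. Shmt1 (chromosome 11, 60788104 to 60811718, minus strand) was at -0.15 ± 0.16 (unadjusted p = 0.346) in the authors' deposited table. Gmps (chromosome 3, 63976106 to 64022579, plus strand) was at -0.10 ± 0.11 (unadjusted p = 0.384) in the authors' deposited table. The adjusted p was 1.00 for each of these 5 genes.

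Serine is made from a glycolytic intermediate by 3 enzymes. Phgdh, the first and committed enzyme, was at -0.02 ± 0.12 (mean 2161) in the authors' deposited table. Psat1, the aminotransferase that follows it, was at 0.06 ± 0.11 with a mean of 2752. Psph, the phosphatase that releases serine, was at 0.06 ± 0.19 (mean 619) in the authors' deposited table. The estimates lay on both sides of 0, each within its SE. Psph shares 452 exon bases, 10.4% of its exon length, with Cct6a on the opposite strand, a gene at 7373 in the authors' deposited table. Whether the counting used strand is not stated in the labels or the file header, so the level of Psph is uncertain.

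The folate cycle is split between compartments, and the genes of both sides were measured. On the mitochondrial side, Shmt2 (serine hydroxymethyltransferase) was at -0.01 ± 0.12, Mthfd2 (a dehydrogenase and cyclohydrolase) at 0.04 ± 0.11 and Mthfd1l (which releases formate) at -0.06 ± 0.13 in the authors' deposited table. On the cytosolic side, Shmt1 and the trifunctional enzyme gene Mthfd1 had the lower estimates given above. The difference between the sides was not tested, and all 5 intervals span 0. Levels per length, in mean normalized counts per kb of exon, were 816 for Shmt2 and 240 for Shmt1, a ratio of 3.39. They were 729 for Mthfd2 and 11.7 for its paralogue Mthfd2l, a ratio of 62.1. Mthfd1 had 560 per kb and Mthfd1l 424 per kb.

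The methionine cycle takes up the same carbon unit. Mtr, methionine synthase, was at -0.07 ± 0.16 (mean 880) in the authors' deposited table. Ahcy, which clears S-adenosylhomocysteine, was at -0.05 ± 0.13 (mean 1940) in the authors' deposited table. With Mat2a, all 3 genes of this group were negative, and none passed. Per kb of exon, Mtr stood at 103, against 654 for Mat2a and 692 for Ahcy.

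The PRPP synthetase genes lay near 0. Prps1 was at 0.03 ± 0.18 and Prps2 at 0.01 ± 0.14 in the authors' deposited table. Both lie on the X chromosome, and their levels per length were close, at 368 for Prps1 and 358 mean normalized counts per kb for Prps2.

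Purine synthesis builds inosine monophosphate (IMP) on PRPP and then divides into an adenylate and a guanylate branch. Ppat, the amidotransferase that commits PRPP to this route, was at -0.08 ± 0.12 (mean 1992) in the authors' deposited table. Of the following enzymes, the trifunctional Gart was at -0.05 ± 0.11, Pfas (formylglycinamidine synthesis) at 0.01 ± 0.11 and the bifunctional Paics at -0.07 ± 0.11 in the authors' deposited table. Adsl, the lyase that acts both on the way to IMP and in the adenylate branch, was at -0.08 ± 0.12, and Atic, which closes the IMP ring, at -0.05 ± 0.10 in the authors' deposited table. In the adenylate branch Adss was at -0.06 ± 0.11. In the guanylate branch Impdh2, the IMP dehydrogenase of dividing cells, was at -0.07 ± 0.10, and its paralogue Impdh1 at 0.11 ± 0.16 in the authors' deposited table. Thus 8 of 10 purine genes were negative, with a median of -0.07 (-0.04 with a linear trend on GC content and transcript length removed), and all 10 intervals lay inside -0.5 to 0.5. Impdh2 was the more abundant paralogue, with 1222 per kb against 277 per kb for Impdh1, a ratio of 4.40. Ppat and Paics lie head to head on chromosome 5: Ppat spans 76913249 to 76951578 on the minus strand and Paics 76951307 to 76967509 on the plus strand. Their exons share 272 bases, where reads of the pair cannot be told apart without strand.

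Pyrimidine synthesis gave estimates on both sides of 0. Cad, the trifunctional enzyme that starts the pathway, was at 0.00 ± 0.10 (mean 4198, the second highest of the 35) in the authors' deposited table. Dhodh, the mitochondrial step, had the lowest mean (216) and was at -0.14 ± 0.30 in the authors' deposited table. Umps, which forms uridine monophosphate, was at -0.05 ± 0.15 in the authors' deposited table. The CTP synthase genes were at -0.01 ± 0.14 for Ctps and 0.11 ± 0.19 for Ctps2 in the authors' deposited table. Ctps had 417 and Ctps2 132 mean normalized counts per kb of exon, a ratio of 3.15. Dhodh had 34.2 per kb, the lowest level per length of the 35.

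Deoxynucleotide genes were negative in 6 of 7, with a median of -0.08, and Dctpp1 was the exception. After removal of the GC and length trend, 6 of 7 were still negative, with a median of -0.03. Rrm1 and Rrm2, the large and small subunits of ribonucleotide reductase, were at -0.08 ± 0.10 each (means 4892 and 4125) in the authors' deposited table. Tyms, thymidylate synthase, was at -0.13 ± 0.17, and Tk1, the thymidine kinase of S phase, at -0.01 ± 0.17 in the authors' deposited table. Dck, deoxycytidine kinase, was at -0.15 ± 0.19, and Dut, which removes dUTP, at -0.04 ± 0.11 in the authors' deposited table. Proliferation markers lay on the same side: Mki67 was at -0.38 ± 0.29, Top2a at -0.19 ± 0.09, Pcna at -0.12 ± 0.10, Mcm2 at -0.10 ± 0.11 and Mcm5 at -0.11 ± 0.11 in the authors' deposited table. All 5 of these markers were negative and none passed (adjusted p = 1.00 for each). Their part in the direction of the nucleotide genes was not tested. In bulk RNA, fewer cells of a kind and less RNA per cell cannot be told apart. Without the 7 deoxynucleotide genes, the median of the other 28 was -0.05, as for all 35. This omission was added after the data were seen, and it does not test the part of proliferation.

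Levels per length ranged widely within the pathway. Rrm2 had 1489 mean normalized counts per kb of exon, followed by Impdh2 (1222), Dut (1161), Paics (923) and Phgdh (869). At the low end stood Dhodh (34.2), Mtr (103), Ctps2 (132), Tyms (136) and Psph (143). The median of the 24 genes with means of 1000 or more was 586 per kb, against 394 for all 3664 genes at that abundance. The 24 genes were shorter, with a median exon length of 4337.5 bases against 5491.5, so this comparison is not matched for length. Rrm2 exceeded Rrm2b, the p53-controlled small subunit, 39.2-fold per kb of exon (38.0 per kb for Rrm2b) and 24.7-fold per kb of the longest transcript. Length is a choice here: with the longest annotated transcript in place of all exons, the level of 11 of 35 genes was higher by more than 1.5 times. The ratio was largest for Atic, with 1161 per kb of that transcript against 414 per kb of exon, and Impdh2, at 2023 per kb, then stood above Rrm2 at 1881.

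**Figure D3:**
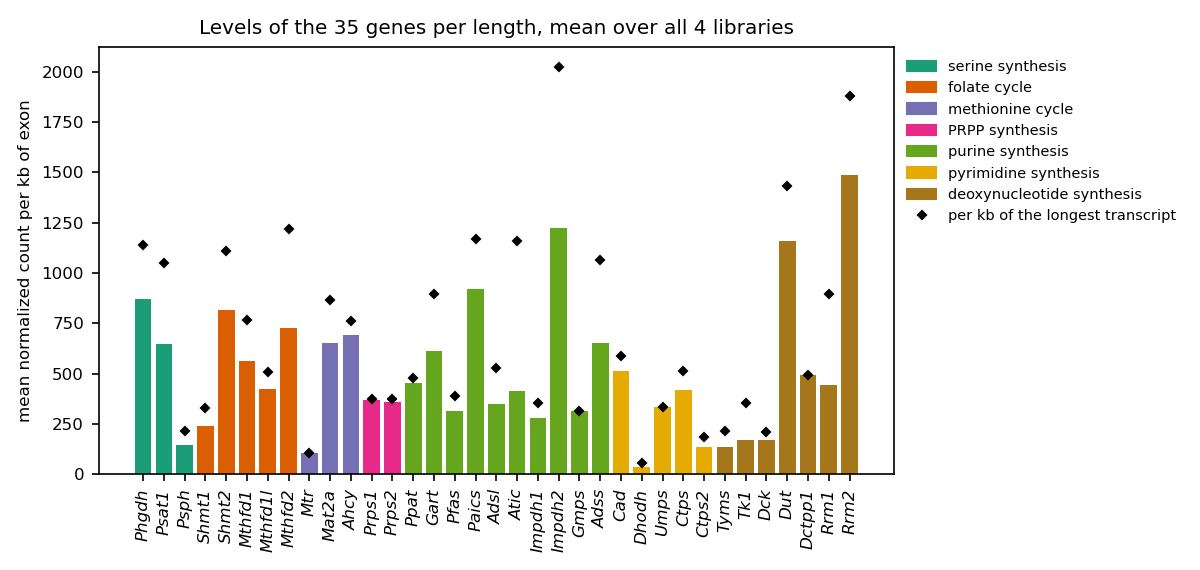
Mean normalized count per kb of exon (y axis, from 0) for each of the 35 genes (x axis), coloured by role; diamonds give the level per kb of the longest transcript. Rrm2, Impdh2 and Dut are the tallest bars and Dhodh the shortest, at 34.2 per kb.

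Copies elsewhere in the genome could take or give reads for some genes. In 8 of 35 genes, the longest transcript matched transcripts of another gene over at least 200 bases at 95% identity or more. Phgdh matched 9 processed pseudogenes, whose means summed to 1.61% of the mean of Phgdh itself. For Impdh2 the pseudogene Impdh2-ps, at 99.7% identity over 1545 bases, had a mean of 41.6, or 1.11% of that of Impdh2. Tyms stood apart: stretches of it matched 19 other genes, among them Tyms-ps (mean of 0.471) and the expressed genes Reep3, Map3k2 and Wdr59. How reads with several matches were counted is not stated in the labels, so the value of Tyms is uncertain.

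Other genes of the pathway also had small estimates. Of 20 other folate and one-carbon genes, 19 had a fold change and 18 a mean of at least 10, of which 10 were negative and 8 positive (median -0.02, 0 past the threshold). After removal of the GC and length trend, the majority turned, to 8 negative and 10 positive with a median of 0.03. Smallest in p among these were Aldh1l2, a mitochondrial formyl-folate dehydrogenase, at 0.73 ± 0.74 with a mean of only 38.0, Mtap, the methylthioadenosine phosphorylase, at -0.14 ± 0.16, and Ggh, which trims folate polyglutamates, at 0.16 ± 0.19 in the authors' deposited table. The folate carrier Slc19a1 was at -0.03 ± 0.20 in the authors' deposited table. Bhmt had a mean of 0 and no fold change.

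Nucleotide salvage and interconversion genes were split 12 negative and 11 positive among 23 with a mean of at least 10 (median 0.00, 0 past the threshold). The even split depended on the scaling: with the GC and length trend removed, 8 were negative and 15 positive, with a median of 0.04. Upp1, uridine phosphorylase, was at 0.25 ± 0.12 (mean 2533, unadjusted p = 0.0441, adjusted p = 1.00) in the authors' deposited table. It was the only gene of the pathway lists with an unadjusted p below 0.05, and it did not pass the test. Aprt, adenine salvage, was at 0.12 ± 0.12 in the authors' deposited table. Hprt, the main purine salvage enzyme, was at -0.02 ± 0.11, and Samhd1, which degrades deoxynucleotides, at -0.00 ± 0.09 (mean 7839) in the authors' deposited table.

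Transcription factors known to act on these genes were likewise near 0. Myc, which drives nucleotide synthesis genes in activated T cells, was at -0.02 ± 0.10 with a mean of 4784, and Atf4, which drives serine synthesis genes, at 0.03 ± 0.11 (mean 4166) in the authors' deposited table. Smallest in p of the 8 factors were Tfdp1 at -0.06 ± 0.10, E2f3 at -0.09 ± 0.17 and Atf4. There were 6 negative and 2 positive estimates, with a median of -0.03 and 0 past the threshold, and 7 negative and 1 positive with a median of -0.06 when the GC and length trend was removed.

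**Figure D4:**
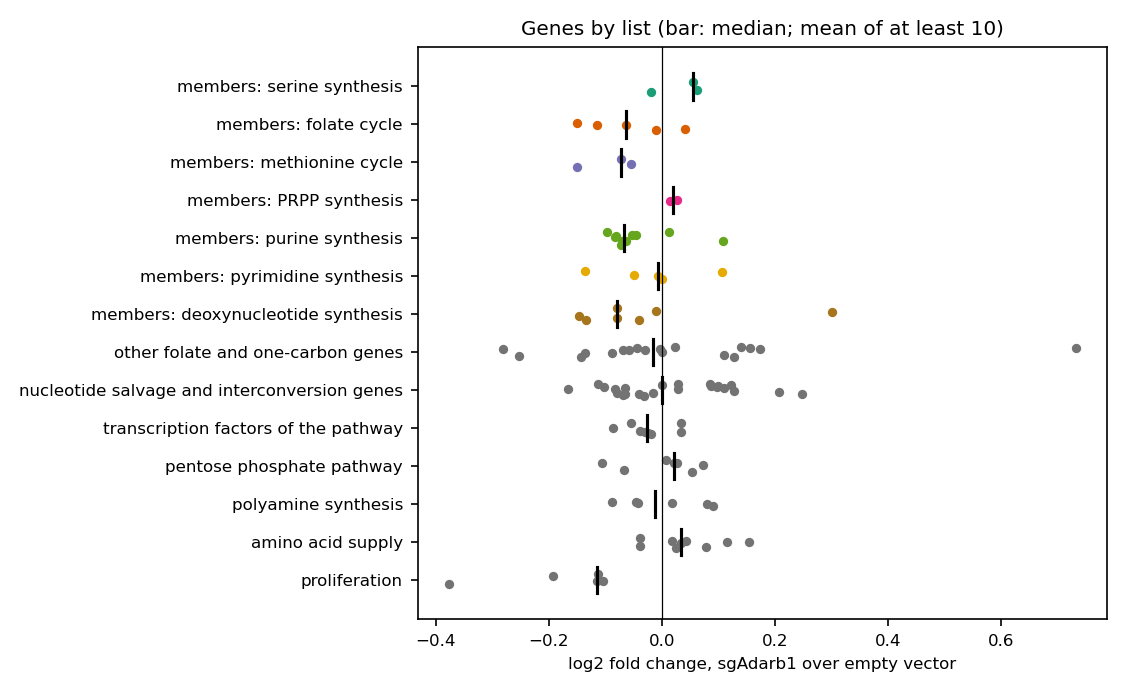
Log2 fold change, sgAdarb1 over empty vector (x axis), of single genes with a mean of at least 10 (points) by list (rows), with the median as a bar; points are spread vertically at random. The 35 genes are coloured and other lists grey, and all 5 proliferation markers lie below 0.

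Promoter windows from RefSeq (build GRCm38.p6, 250 bases before to 50 after a start) were found for 33 of 35 genes, without Pfas and Dhodh. A gene with several windows counted once, if any of them held the letters. Myc binds the E-box, and the letters CACGTG, which read the same on both strands, occurred in 4 of 33 genes (12.1%), against 8.09% of 27025 genes with a window. The 4 genes are shown because Myc is the best known regulator of this pathway. Each sequence has the E-box in capitals with 12 bases on either side, written on the strand of the gene.
Atic: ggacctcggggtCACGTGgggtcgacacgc
Paics: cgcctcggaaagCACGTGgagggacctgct
Impdh2: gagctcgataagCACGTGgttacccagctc
Tyms: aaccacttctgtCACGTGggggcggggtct
The stretches lie at chr1:71557137-71557166 (plus strand) for Atic, chr5:76951087-76951116 (plus strand) for Paics, chr9:108560314-108560343 (plus strand) for Impdh2 and chr5:30073669-30073698 (minus strand) for Tyms. That of Paics lies in an exon of its neighbour Ppat, that of Impdh2 in an annotated exon of Impdh2, and that of Atic partly in its first bases. These 4 genes were at -0.05 to -0.13 on the log2 scale, each within its SE, as given above.

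Other motifs were sought on both strands. The letters TGATGNAA, part of an Atf4 site, occurred in 1 of 33 genes (Prps1), against 4.51% of all genes. The E2F letters TTTCCCGC occurred in Ppat and Prps2, or 6.06%, against 1.24% of all genes, and TTTGGCGC in 0 of 33, against 0.585%. The Sp1 box GGGCGG occurred in 27 of 33 genes (81.8%), against 38.2% of all genes. The shares of all genes, also that for CACGTG, count every gene with a window, whatever its level. The 35 genes had means of 216 or more, so these comparisons are not matched for expression. These matches describe letters in a window and were not related to the fold changes.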

How the data were processed

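Values are the authors'. The mm10 build, DESeq2 1.18.1, featureCounts and STAR 2.6.1a are named in the submitters' processing notes. Not given in the sources used here are the annotation, the strand setting and the model with any donor term. Per the file headers, the authors deposited a mean signal (normalized count), a log2 fold change with its SE, a Wald score and the p-value with its Benjamini-Hochberg adjustment. The score equalled fold change over SE, and the adjustment covered all 29383 genes with a fold change. The table's 4 columns of single libraries carry names that match no label and were not used, so the planned count tests were not run and depth per library is not given. All 55450 identifiers matched GENCODE mouse M21, the source of symbols, positions and exon lengths. Intervals are 95% normal intervals from the SE. The fit of a linear trend on GC content and length was tested on simulated data that held a GC effect but no length effect. Python 3.11.15, pandas 2.3.3 and blastn 2.17.0 were used. The 35 genes, the other lists and the tests were chosen with earlier results of these data known. Named genes were all 35, Adarb1, Adar, the 3 of smallest p with a mean of at least 10 in each other pathway list, of which 1 is not reported here, and further examples chosen after their values were seen. Nothing in the labels beyond the 2 donors says how far the cultures were separate.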

Additional observations from a re-analysis of the deposited data

How the results depend on the processing

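Against 0 of all genes past an adjusted p of 0.05, 3 passed when p was adjusted over genes whose mean reached 10, 2 when it reached 50, and 3 at a threshold of 0.1, while 61 had an unadjusted p below 0.05. Under these 4 settings 0 of the 35 genes passed. Their median of -0.05 was -0.05 after centring on all genes, -0.04 after removal of a linear trend on GC and length and -0.04 as a mean weighted by precision. Of the 35 genes, 10 were positive in the deposited values, 9 after centring (Cad turned) and 10 with the trend removed, where Adss, Ctps, Pfas and Cad changed sign. With the trend removed, 5 of the 24 genes whose mean reached 1000 were positive, as before it. This setting, which counts fewer genes, and the omission of deoxynucleotide genes were added after seeing the data. No paired analysis was possible because no column of single libraries could be tied to a sample. For that reason edgeR and DESeq2 refits, other filters, grouping by the treatment tag and omission of a library were not run. The deposited SE limits what was detectable.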

Other observations

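Supply routes around the pathway were looked at in lists chosen after the values of the 35 genes were seen. Pentose phosphate genes, which give the ribose of PRPP, were positive in 5 of 7 (median 0.02), beside 50.5% of all genes with a mean of at least 10. After removal of a linear trend on GC content and length, the majority turned, to 3 positive and 4 negative (median -0.01). They include Tkt, transketolase, at 0.05 ± 0.09, and G6pdx, the first enzyme, at 0.01 ± 0.15 in the authors' deposited table. Genes of amino acid uptake and of glutamine and aspartate metabolism, which feed the rings, were positive in 7 of 9 (median 0.03, and 0.04 with that trend removed). Got1, the cytosolic aspartate aminotransferase, was at 0.15 ± 0.13 and Asns, asparagine synthetase, at 0.12 ± 0.14 in the authors' deposited table. Polyamine genes, which use S-adenosylmethionine, were split 3 and 3, or 4 positive and 2 negative with that trend removed. Odc1, ornithine decarboxylase, was at 0.09 ± 0.08 (mean 17376) in the authors' deposited table, above the mean of any of the 35. None of these 22 genes had an unadjusted p below 0.05.

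Across the 35 genes, the log2 fold change went with the GC content of the longest transcript at a Spearman rho of 0.36 and with its length at -0.36. The linear trend over all genes with a mean of at least 10 also rose with GC content, by 0.085 per 10 points. With length that trend went the other way from the 35 genes, at 0.033 per unit of log10 length. The genes share the same 4 libraries, so these are descriptions.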
